A study of Homo sapiens with 4 samples.

Results

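The m6A peaks of 8 genes of the Hippo pathway were described in RWPE1 cells with and without knockdown of FTO, the enzyme that removes m6A from RNA. The genes were YAP1, WWTR1, LATS1, LATS2, TEAD1, CYR61, CTGF and AMOTL2. A peak belonged to a gene when it lay on the strand of the gene and overlapped its locus on the human genome build hg19, with the edges of each locus given in whole kb, 795 kb in all. This gave 20 of the 20410 listed peaks, 6 of 10087 in control cells and 14 of 10323 in FTO knockdown cells. RWPE1 is a line of immortalized human prostate epithelium. The knockdown cells (shFTO) carried a lentiviral shRNA directed at FTO, and the control cells (shCtrl) carried the lentiviral vector. Both were selected with puromycin and kept as stable lines, and a single FTO target sequence is given for the lentiviral shRNA. MeRIP-seq enriches methylated RNA fragments with an m6A antibody (IP), and a peak is a stretch where the IP library has more reads than its input. Each condition had 1 IP library and 1 input library, so no difference between shFTO and shCtrl cells has a replicate check and no test between them was made.

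The Hippo pathway limits cell proliferation and organ size. The kinases LATS1 and LATS2 phosphorylate the co-activators YAP1 and WWTR1 (also known as TAZ), which keeps them out of the nucleus. Unphosphorylated YAP1 and TAZ bind transcription factors of the TEAD family, such as TEAD1, on promoters and enhancers. CYR61 and CTGF encode secreted matrix proteins and are classical YAP targets, named CCN1 and CCN2 in current RefSeq. AMOTL2 is a YAP target as well, and its product, a member of the angiomotin family, in turn holds YAP1 in the cytoplasm. In mRNA, m6A is known to lie mainly in long internal exons and around stop codons.

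Promoter sequences of the group are shown first, since YAP1 and TAZ act through TEAD factors on promoters and enhancers. Enhancers were not searched. The promoters, from 250 bases before to 50 bases after each transcript start, were those of RefSeq on GRCh38.p14, another build than that of the peaks. They were searched on both strands for the TEAD core motif GGAATG, which reads CATTCC on the other strand. There were 9 promoters for 6 of the genes, with none in the table for TEAD1 and CYR61. The motif was found in 4 of the 9, those of CTGF, YAP1 and LATS2 and 1 of the 2 of AMOTL2. Of all 35116 promoters, 14.0% held it. CTGF held it 3 times, with first bases 169, 104 and 95 bases before the start, and the 2 nearest copies stood side by side. The LATS2 motif lay after the transcript start, unlike the other copies, and its window is not shown. The windows below are written 5′ to 3′ on the strand of the gene, with the motif in capitals.

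CTGF, chr6:131951524-131951553, minus strand: ttttcagacggaGGAATGctgagtgtcaag
CTGF, chr6:131951459-131951488, minus strand: ggaaggtggggaGGAATGcgaGGAATGtcc
AMOTL2, chr3:134374499-134374528, minus strand: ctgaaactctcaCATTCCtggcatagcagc
YAP1, chr11:102110273-102110302, plus strand: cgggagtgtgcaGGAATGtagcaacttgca

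These windows describe the genes and do not bear on the peaks, which were called on RNA. All positions that follow are on hg19, 1-based. A genome and gene models of hg19 were not used here, so a peak was placed along its locus by its midpoint and not assigned to an exon, an intron or a UTR. In RefSeq, all members but CYR61 overlap at least 1 other gene, among them YAP1-DT, WWTR1-AS1, WWTR1-IT1, TEAD1-AS1 and CCN2-AS1, so a peak was tied to its gene by strand and place alone.

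Listed peaks lay in 6 of the 8 genes in FTO knockdown cells and in 3 of the 8 in control cells. The share of all genes with a listed peak was not counted, since hg19 gene models were not used. YAP1 and TEAD1 had peaks in both lists, LATS1, LATS2, WWTR1 and AMOTL2 in the shFTO list alone, CTGF in the shCtrl list alone, and CYR61 in neither. The knockdown list thus contributed 14 of the 20 peaks, or 70.0% (95% Wilson interval, for counting error alone, 48.1% to 85.5%), against 50.6% of all listed peaks. The interval includes 50.6%. Peaks of 1 gene come from the same transcripts and are not independent of each other. YAP1 had 3 peaks in each list, so leaving it out raised the knockdown share by construction. Without YAP1, left out after seeing the data, the count was 11 against 3. Within 1000 kb of the loci, on both strands, there were 58 shFTO peaks and 68 shCtrl peaks in all, a knockdown share of 46.0%. The surroundings differed between genes. Knockdown peaks were more numerous around LATS1 (13 against 10), LATS2 (10 against 8), AMOTL2 (7 against 5) and CYR61 (10 against 8). Control peaks were more numerous around TEAD1 (13 against 6), CTGF (9 against 3), WWTR1 (9 against 5) and YAP1 (6 against 4). Of the 4 genes with knockdown peaks alone, LATS1, LATS2 and AMOTL2 lay among slightly more listed knockdown than control peaks, and WWTR1 did not. Differences of so few peaks have no replicate check. On the opposite strand of the 8 loci there were 0 peaks in either list. How strands were set is not given in the sources used here, so no conclusion is drawn from this count.

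**Figure D1:**
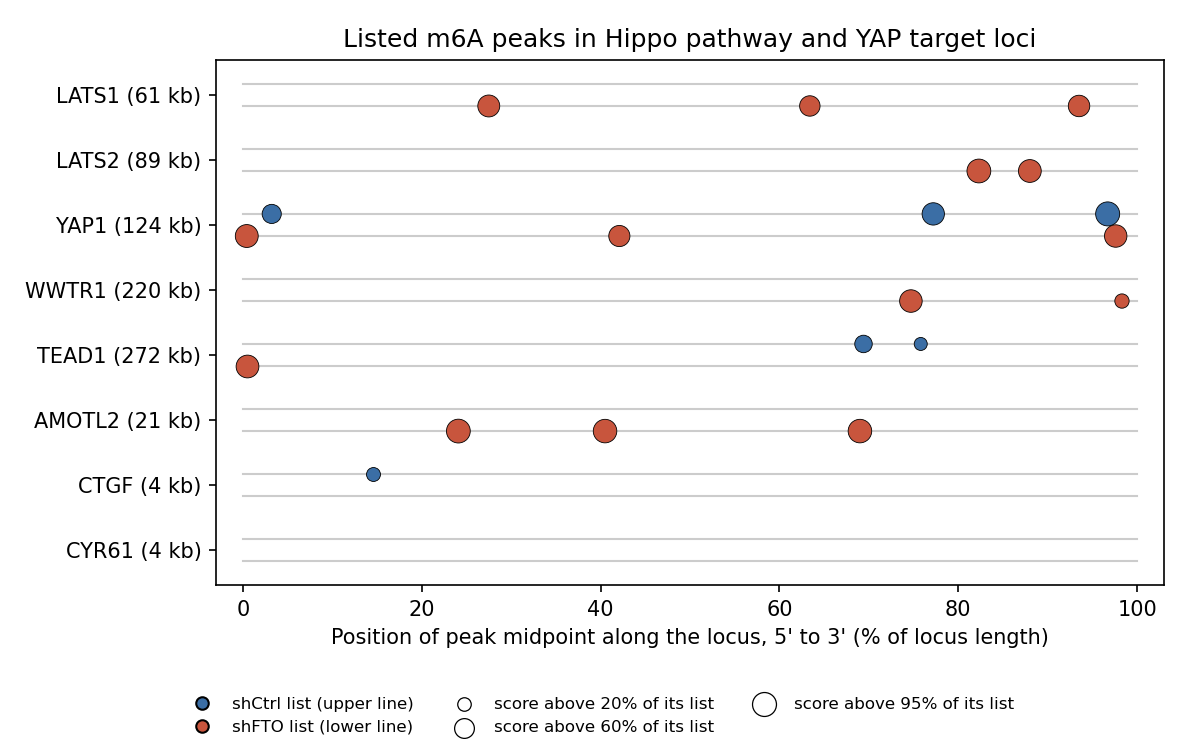
Position of the 20 listed m6A peaks along the 8 loci, from the 5′ edge (0%) to the 3′ edge (100%), with the shCtrl list on the upper and the shFTO list on the lower line of each gene. The size of a point is the share of its own list with a lower score. LATS1, LATS2, WWTR1 and AMOTL2 carry points on the lower line alone, and only the points at the 3′ edge of YAP1 overlap between the lists.

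The score of a peak is that of the authors and was read as a P value on a scale of 10 times its negative log10. Scores were ranked within a list and not compared between lists, because the number of reads behind each list is unknown. In the knockdown list, 13 of the 14 peaks had a score above the median of their list, against 50% of all its peaks. Their median score was 1140 and that of the whole list 220. In the control list, 3 of the 6 peaks were above the median, against 50% of all its peaks, with a median score of 173 for the 6 peaks and 172 for the list. The knockdown peaks were also wide for their list, with a median of 579.5 bp against 242 bp, while the control peaks had a median of 228.5 bp against 212 bp. The members covered 10232 bp in shFTO cells and 1939 bp in shCtrl cells, a ratio of 5.28 against 1.34 over all peaks. Without YAP1, left out after seeing the data, the ratio for the members was 10.2. The count ratio was 2.33 for the members and 1.02 for all peaks.

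**Figure D2:**
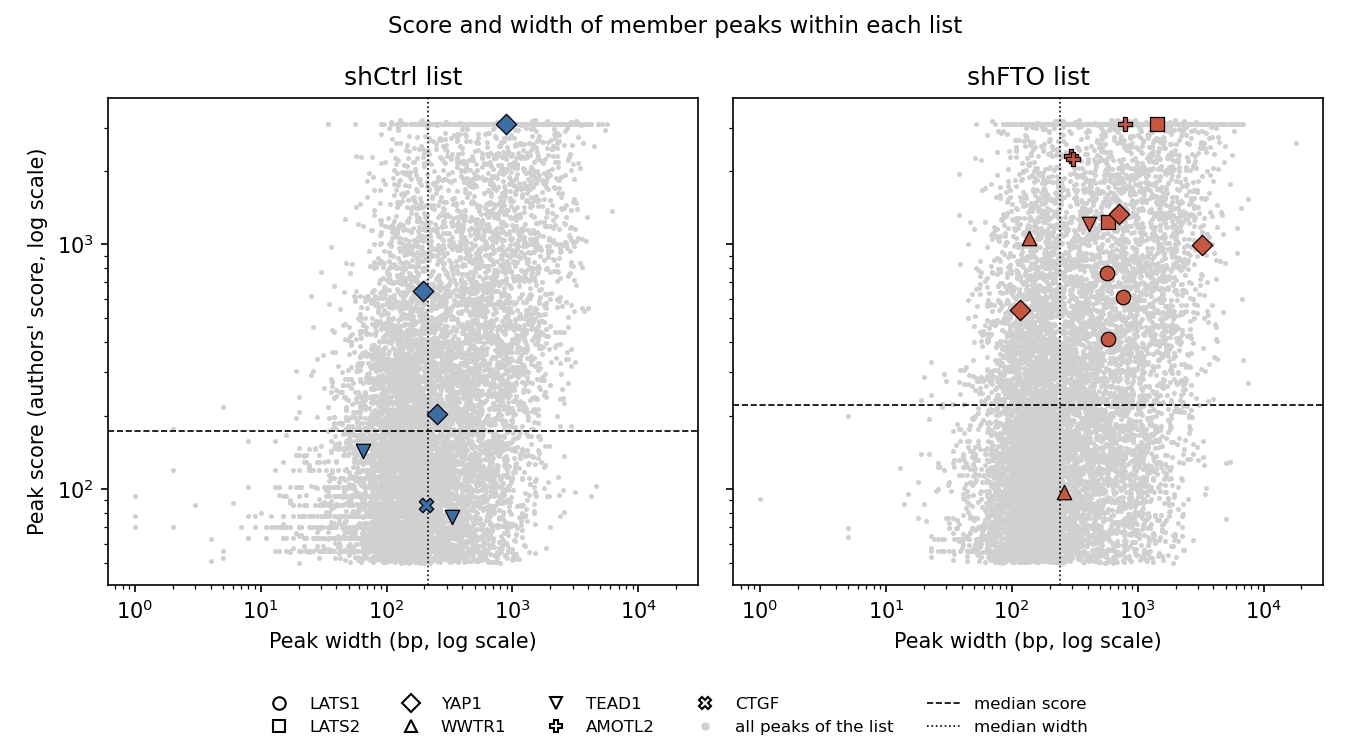
Score against width of each peak on log scales, with the shCtrl list on the left and the shFTO list on the right. Grey points are all peaks of a list, large symbols are the peaks in the 8 loci by gene, and lines mark the median score (dashed) and the median width (dotted) of the list. In the shFTO panel 13 of 14 symbols lie above the dashed line, and in the shCtrl panel 3 of 6.

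The kinases LATS1 and LATS2, which restrain YAP1 and TAZ, had 5 listed peaks in FTO knockdown cells and 0 in control cells. Of all knockdown peaks, 19.6% overlapped a control peak, so most peaks of that list had no counterpart. LATS1 spans 61 kb on the minus strand of chromosome 6. Its knockdown peaks lay at chr6:150022915-150023490, chr6:150001011-150001593 and chr6:149982613-149983374, in the direction of transcription. They had scores of 767, 411 and 612, higher than 77.3%, 65.1% and 73.4% of the list. They sat at 27.5%, 63.4% and 93.5% of the locus, so they were spread over the gene, with the last of them 4.0 kb from the 3′ edge. All 3 were wider than the list median, at 576, 583 and 762 bp.

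LATS2 spans 89 kb on the minus strand of chromosome 13. Its knockdown peaks lay close together at 82.3% and 88.0% of the locus, at chr13:21562020-21563443 and chr13:21557363-21557945. The upstream peak was 1424 bp wide, wider than 90.7% of the list, and had a score of 3100, a value shared by 611 shFTO peaks that have no order among themselves. The downstream peak was 583 bp wide with a score of 1238, higher than 84.7% of the list. Neither kinase locus held a listed control peak on either strand. The nearest one on either strand lay 66.9 kb from the LATS1 locus and 99.9 kb from the LATS2 locus. The nearest control peak on the same strand was at least 133730 bp away from each LATS1 peak and at least 172485 bp away from each LATS2 peak.

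YAP1, the co-activator at the end of the kinase cascade, had 3 listed peaks in each condition and was the gene with the most peaks. It spans 124 kb on the plus strand of chromosome 11. In control cells the peaks lay at chr11:101984875-101985125, chr11:102076624-102076817 and chr11:102100433-102101322, with scores of 203, 643 and 3100. In knockdown cells they lay at chr11:101981192-101981900, chr11:102033187-102033302 and chr11:102100433-102103701, with scores of 1329, 538 and 997. Both sets thus had a peak near the 5′ edge, one inside the gene and one near the 3′ edge, but only the last overlapped between the lists. The peaks near the 5′ edge were 2974 bp apart, with the knockdown peak 0.5 kb and the control peak 4.0 kb from the edge. Those inside the gene were 43321 bp apart.

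The YAP1 peak near the 3′ edge was the only member peak found in both conditions. It began at the same base in both lists, as did 1452 (72.8%) of the 1994 pairs in which 1 control peak overlapped 1 knockdown peak. It ended 2379 bp further downstream in knockdown cells, with a width of 3269 bp there and of 890 bp in control cells (3.67 times wider). The median ratio over the 1994 pairs was 1. Of these pairs, 654 were wider in the shFTO list, 226 were wider in the shCtrl list and 1114 had the same width. The YAP1 pair thus went in the more common direction, and 48 pairs (2.41%) had a larger ratio than that of YAP1. The rank of the peak was read within each list alone. In control cells the peak was one of 406 with a score of 3100 and was above 95.8% of the list, and in knockdown cells its score of 997 was above 81.6% of the list.

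Over all members, 1 of 6 control peaks had a partner in the other list (16.7%, 95% Wilson interval 3.01% to 56.4%), against 20.2% of the whole control list. For the knockdown peaks it was 1 of 14 (7.14%, 1.27% to 31.5%) against 19.6% of the whole list. Both intervals are for counting error alone and treat peaks as independent, which peaks of 1 gene are not. They include the share of the whole list, and no difference from it can be read from so few peaks.

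WWTR1, which encodes TAZ, had 2 listed peaks, both in knockdown cells. It spans 220 kb on the minus strand of chromosome 3. The peak at chr3:149290651-149290787 was 137 bp wide with a score of 1067, above 82.6% of the list, and lay at 74.7% of the locus. The peak at chr3:149238515-149238776 lay at 98.3% of the locus, 3.6 kb from the 3′ edge. Its score of 97.8 was above 24.3% of the list, and it was the only knockdown member below the median score. The last knockdown peaks of YAP1 and LATS1 had midpoints 2.9 kb and 4.0 kb from the 3′ edge of their loci. The last control peak of YAP1 had its midpoint 4.1 kb from that edge.

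TEAD1, the DNA-binding partner of YAP1 and TAZ, had 2 listed peaks in control cells and 1 in knockdown cells, all at different places. It spans 272 kb on the plus strand of chromosome 11. The control peaks lay at chr11:12883797-12883861 and chr11:12901057-12901389, at 69.4% and 75.8% of the locus, with scores of 144 and 76.9. Both scores were below the list median, and the first peak was only 65 bp wide. The knockdown peak lay at chr11:12695969-12696381, 1.2 kb from the 5′ edge, and was 413 bp wide with a score of 1214, above 84.5% of the list. It was 187415 bp away from the nearest control peak in TEAD1.

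Among the YAP targets, AMOTL2 had 3 listed peaks in knockdown cells, CTGF had 1 in control cells and CYR61 had none. AMOTL2 spans 21 kb on the minus strand of chromosome 3. Its peaks lay at chr3:134089542-134090336, chr3:134086339-134086645 and chr3:134080354-134080649, from 24.1% to 69.0% of the locus. Their scores were 3100, 2223 and 2289, above 93.8%, 91.2% and 91.4% of the list, so all 3 peaks of AMOTL2 ranked high in the knockdown list. The widths were 795, 307 and 296 bp. The nearest control peak on the same strand was at least 416249 bp away from any of them. On either strand, the nearest listed control peak lay 169.4 kb from the AMOTL2 locus.

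The CTGF peak lay at chr6:132272313-132272518 on the minus strand, 0.6 kb from the 5′ edge of a 4 kb locus. It was 206 bp wide with a score of 86.0, above 22.3% of the control list. The locus of CYR61, also 4 kb, held 0 listed peaks in either list. CYR61 and CTGF are the shortest loci of the group. The lists hold no expression values, so the RNA level of these genes was not analysed here. The study examined the depletion of FTO by western blot, and it was not checked in the peak lists.

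The lists appear to leave out most of the called peaks. The peaks carry running numbers, which rose with position on all 24 chromosomes in both lists, up to 173974 in shCtrl cells and 161598 in shFTO cells. The listed peaks correspond to 5.80% and 6.39% of these. They were read as a count of called peaks, which the sources used here do not state. Read so, they set limits on how many called peaks are missing at a locus, on either strand. Across YAP1, the first and the last listed peak were 27 numbers apart in control cells, both included, so at least 24 called peaks inside the gene were not listed. In knockdown cells there were 31 numbers and at least 28 unlisted peaks. Across LATS1, 11 numbers were used in knockdown cells and at least 8 were not listed.

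For the genes with no listed control peak, the numbers only give an upper limit. Between the listed neighbours on either side, which lay 66.9 kb to 409.9 kb from the loci, the control peaks numbered 45 around LATS1, 54 around LATS2, 37 around WWTR1, 61 around AMOTL2 and 27 around CYR61. In knockdown cells, with neighbours 115.3 kb to 2076.7 kb away, there were 47 around CTGF and 14 around CYR61. Control peaks inside LATS1, LATS2, WWTR1 and AMOTL2 may therefore have been called and not listed, and a difference in m6A between shFTO and shCtrl cells cannot be told apart from the selection of the listed peaks.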

How the data were processed

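MeRIP-seq was performed on RWPE1 cells, with 1 IP and 1 input library for shCtrl and for shFTO (4 libraries). Per the labels, reads were processed with cutadapt 1.9.3 and HISAT2, and the build was hg19. The authors deposited 2 peak lists, each with position, strand, name and a score. The names are in the form written by MACS. Caller settings, the rule that selected the listed peaks and the way strands were set are not given in the sources used here, and read totals were not used, so depth is unknown.

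Members were the peaks on the gene strand that overlapped a locus by at least 1 bp. A partner was a peak of the other list that overlapped by at least 1 bp on either strand. The count of partners was tested on simulated peaks with known overlaps. Python 3.11.15, pandas 2.3.3 and SciPy 1.17.1 were used. Shares have 95% Wilson intervals. All 8 genes are named. The genes and tests were chosen with earlier results of these data known. Other pathway genes were not placed, since hg19 gene models were not used here. Another 9 settings were tried, and 1 more (YAP1 left out) was chosen after seeing the data.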

Additional observations from a re-analysis of the deposited data

How the results depend on the processing

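Merging peaks within 100 bp, extending the loci by 5 kb and keeping only peaks wholly inside a locus changed no count and no ratio. When only the upper part of each list by score was kept (from the median up, or the top 5000 peaks), the loci held 3 control and 13 knockdown peaks, the control peaks all in 1 gene and the knockdown peaks in 6, and the length ratio was 7.47. With a reciprocal overlap of at least 50%, 0 control and 0 knockdown peaks had a partner, since the YAP1 peaks differ in width. The other 3 definitions of a partner kept 1 in each list. Without YAP1, chosen after seeing the data, there were 3 control and 11 knockdown peaks, 0 and 0 with a partner, and a length ratio of 10.2. The only overlapping pair lay in YAP1, so the absence of partners was fixed by this choice. No paired analysis was possible because neither condition has a replicate, so leaving out a library was not possible either. The unknown depth limits what the absence of a peak from a list shows.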
